A study of Homo sapiens with 4 samples.

Results

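The zinc finger gene clusters of human chromosome 19 were examined for the use of their transcript 3′ ends in HEK293 cells. The clusters were taken as 5 fixed windows of the hg19 build, and every 3′ end position on either strand inside them was a member. The windows are called clusters A to E here, from the centromeric side of the short arm to the end of the long arm: chr19:19700000-24400000, chr19:36700000-38300000, chr19:44300000-45000000, chr19:52300000-54100000 and chr19:56600000-59100000. Together they span 11.3 Mb and held 14016 of the 1749181 single-nucleotide 3′ end positions of the series. The other 45148 positions of chromosome 19 served for comparison.

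HEK293 is a cell line derived from human embryonic kidney, and all 4 libraries came from it. The groups were cells given an siRNA against CF Im 68, cells given an siRNA against CstF-64, cells given a control siRNA and cells given no siRNA, with 1 library each. Harvest followed 3 days after siRNA was added. Poly(A) RNA was sequenced by A-seq, which reads the junction between a transcript and its poly(A) tail, so that a read count at a position is the number of reads ending there. Without replicates, every test below compares libraries and not conditions, and the difference between the control siRNA and no siRNA libraries is given as background.

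Zinc finger proteins of the KRAB class form one of the largest families of human transcription factors. Most are repressors that bind DNA through an array of zinc fingers and recruit a co-repressor through the KRAB domain, and many silence transposable elements. Their genes arose by repeated tandem duplication, so that neighbours in a cluster resemble each other in sequence and structure. In a table of human genes on the newer GRCh38 build, 250 of the 517 protein-coding genes with a ZNF symbol lay on chromosome 19 (48.4%), against 7.24% of all protein-coding genes, and 226 of these 250 had another ZNF gene as a direct neighbour. The 3′ end of a transcript is set by cleavage and polyadenylation. CF Im 68 belongs to cleavage factor I, which recognises UGUA motifs ahead of the cleavage position. CstF-64 belongs to the cleavage stimulation factor, which contacts GU-rich sequence behind it. Genes with several poly(A) sites can make a shorter transcript from the proximal site, nearer the promoter, or a longer one from the distal site.

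No annotation of hg19 was used here. Loci are therefore named by the position and strand of their most used site rather than by gene, no sequence is shown, and the transcripts of the siRNA targets were not looked up. Whether a given locus belongs to a zinc finger gene or to another gene in the window was not determined. Neighbouring zinc finger genes share sequence, and how reads with several matches were placed is not given in the sources used here, so that the split of reads between similar genes is uncertain. Read totals were 12792623 with CF Im 68 siRNA, 7343112 with CstF-64 siRNA, 13443454 with control siRNA and 15806975 without siRNA. Of these reads, 66990, 38179, 77240 and 86668 fell in the clusters, in the same order.

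The clusters were not poor in poly(A) sites. A site was the most used position with everything within 25 nt of it, kept when its average over the libraries reached 1 RPM, the usual scaling to the library total, and the sites of a strand within 10000 nt of the most used one formed a locus. The clusters held 373 sites, or 33.0 per Mb, against 29.6 per Mb in the rest of chromosome 19. Their loci, 112 with a single main site and 89 with several, came to 17.8 per Mb against 17.9. The length of the rest, 47.6 Mb, was the span between the outermost 3′ ends less the windows. The centromere was not taken out of it, which lowers the densities of the rest. Density differed widely among them. Cluster C, the shortest, had 106 sites per Mb in 28 loci, clusters B and E had 56.9 and 56.4 sites per Mb in 45 and 81 loci, and cluster D had 20.6 per Mb in 27 loci. Cluster A, which lies next to the centromere, had 6.38 sites per Mb in 20 loci. It also held the longest stretch without any site on either strand, 1.45 Mb between 21989414 and 23437867, whereas the longest such stretch in the other clusters was between 0.11 and 0.30 Mb.

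**Figure D1:**
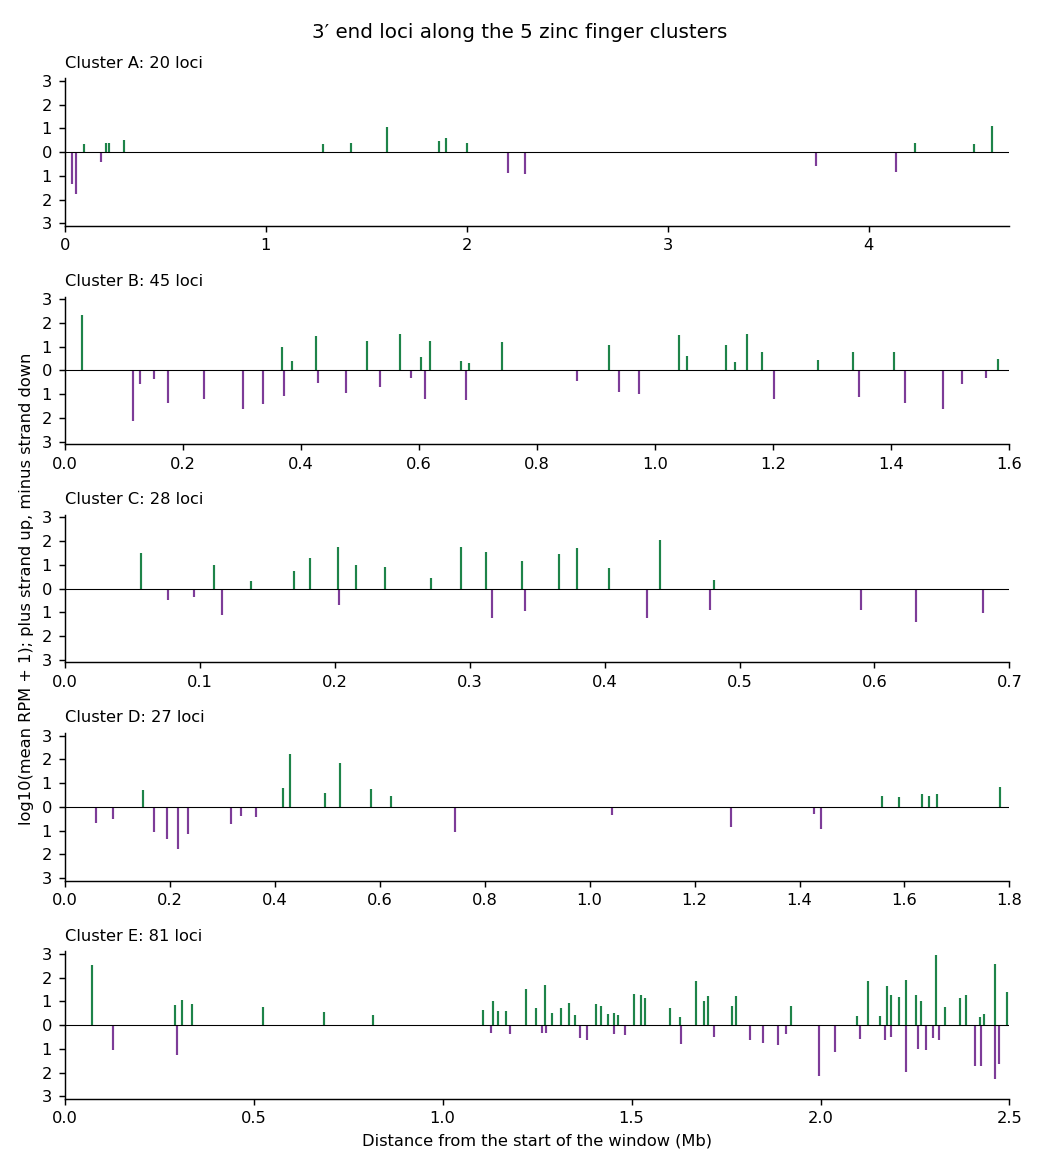
Positions of the loci along clusters A to E. The horizontal axis is the distance from the start of each window in Mb, and each line is a locus whose height is log10 of its mean RPM over the 4 libraries plus 1, drawn up for the plus strand and down for the minus strand. Cluster A shows 20 widely spaced loci with a 1.45 Mb gap, and most of the 81 loci of cluster E lie in its distal part.

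Many loci of the clusters had several sites. At least 2 sites with 5% or more of the locus reads were present at 89 loci of the clusters (44.3%), against 245 of 850 loci in the rest of chromosome 19 (28.8%) and 36.1% of all loci. In cluster C it was 16 of 28 loci (57.1%), in cluster B 25 of 45 (55.6%), in cluster E 34 of 81 (42.0%), in cluster A 7 of 20 (35%) and in cluster D 7 of 27 (25.9%). The 2 most used sites of the tested loci were also farther apart, with a median distance of 2703 nt in the clusters (quartiles 1122 and 5325 nt), 1592 nt in the rest of chromosome 19 and 1115 nt over all loci. A window of 10000 nt can hold the ends of more than 1 gene, and such cases were not separated. The sites themselves were about as sharp as elsewhere: the most used position took a median of 62.4% of a site's reads in the clusters and 65.3% in the rest of chromosome 19. These are descriptions of the regions, without a test between them.

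The 3′ ends of the clusters were used at low levels. The median locus had 6.10 RPM over the 4 libraries (quartiles 2.13 and 16.5 RPM), against 19.1 RPM in the rest of chromosome 19 (quartiles 3.77 and 74.2 RPM) and 7.99 RPM over all loci of the genome. Above 20 RPM were 20.4% of the cluster loci and 49.1% of those in the rest of chromosome 19, and above 100 RPM 9 cluster loci (4.48%) and 171 others (20.1%). The medians of the clusters were 2.0 RPM in A, 9.22 in B, 8.79 in C, 3.97 in D and 5.54 in E, each below that of the rest of chromosome 19. Per length, the clusters gave 463 RPM per Mb with CF Im 68 siRNA, 460 with CstF-64 siRNA, 508 with control siRNA and 485 without siRNA, while the rest of the chromosome gave 1842, 2014, 1973 and 1879 RPM per Mb, in the same order.

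**Figure D2:**
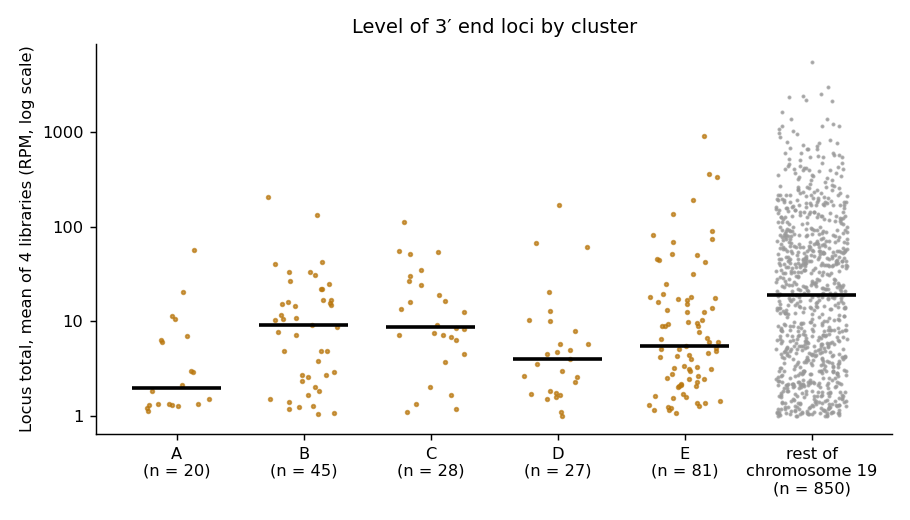
Locus totals as the mean RPM of the 4 libraries on a log axis, by cluster and for the rest of chromosome 19. Each point is a locus and each bar the median of its group, between 2.0 RPM in cluster A and 19.1 RPM in the rest of the chromosome.

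More of the reads in the clusters also lay outside any site that reached the level set for a site. Reads in weaker sites, below 1 RPM, count among them, and the part of the lower levels of the clusters in this share was not tested. Such reads made up 11.8% of cluster reads with CF Im 68 siRNA, 8.52% with CstF-64 siRNA, 10.4% with control siRNA and 9.29% without siRNA. In the rest of chromosome 19 they made up 1.76%, 1.15%, 1.68% and 1.33%, in the same order. Cluster A was highest, with 43.9%, 40.6%, 42.4% and 39.2% of its reads outside sites. The CF Im 68 library had the largest share outside sites in the clusters and in the rest of chromosome 19. Of all its reads 89.5% lay in sites, against 93.0%, 92.3% and 94.2% in the CstF-64, control and no siRNA libraries. Sites were built on the autosomes and X only, so any reads elsewhere count as outside sites in these genome values. The genome values are therefore not the same measure as the shares of the clusters.

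A few loci dominated the cluster reads. The most used was at 58906167 on the plus strand of cluster E, with 626 RPM with CF Im 68 siRNA, 1242 RPM with CstF-64 siRNA, 961 RPM with control siRNA and 755 RPM without siRNA. It took 12.0% of all cluster reads with CF Im 68 siRNA, 23.9% with CstF-64 siRNA, 16.7% with control siRNA and 13.8% without siRNA, and the 10 most used loci took 45.5%, 54.7%, 48.6% and 45.5%. Its level after CstF-64 siRNA was 1.29-fold that after control siRNA (exact conditional 95% interval 1.26 to 1.33) and 1.65-fold that without siRNA (1.60 to 1.69). After CF Im 68 siRNA it was 0.651-fold (0.633 to 0.670) and 0.829-fold (0.806 to 0.853) of the same 2 libraries. The control siRNA library itself stood 1.27-fold above the no siRNA library here, so the excess over control siRNA after CstF-64 siRNA was of the size of the difference between the controls.

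The other leading loci of cluster E were at 59062083 on the plus strand and 56672262 on the plus strand. The first had 452 RPM with CF Im 68 siRNA, 284 RPM with CstF-64 siRNA, 387 RPM with control siRNA and 307 RPM without siRNA. The second had 290, 345, 324 and 388 RPM. Neither left the range of the controls by as much as 2-fold. In cluster D the leading locus, at 52729671 on the plus strand, had 203 RPM with CF Im 68 siRNA, 202 RPM with CstF-64 siRNA, 144 RPM with control siRNA and 132 RPM without siRNA. Both depleted libraries were above both controls there, by 1.41-fold over control siRNA for CF Im 68 (1.33 to 1.5) and 1.40-fold for CstF-64 (1.31 to 1.5), which was larger than the 1.09-fold difference between the controls. Next in cluster D came 52824967 on the plus strand, with 62.1 RPM with CF Im 68 siRNA, 50.5 RPM with CstF-64 siRNA, 81.6 RPM with control siRNA and 76.2 RPM without siRNA, lower in both depleted libraries than in both controls.

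In cluster B the most used loci were at 36729669 on the plus strand and 36815812 and 38187274 on the minus strand. At 36729669 there were 260 RPM with CF Im 68 siRNA, 172 RPM with CstF-64 siRNA, 221 RPM with control siRNA and 173 RPM without siRNA. At 36815812 there were 109, 143, 182 and 98.7 RPM, a 1.84-fold spread between the controls that took in both depleted libraries. The third had 37.6, 39.1, 43.0 and 50.1 RPM. In cluster C the leading loci were at 44741421, 44593766 and 44502478, all on the plus strand. At 44741421 levels were close together, at 114 RPM with CF Im 68 siRNA, 119 RPM with CstF-64 siRNA, 112 RPM with control siRNA and 98.4 RPM without siRNA. At 44593766 they were 45.2, 53.7, 65.3 and 58.6 RPM and at 44502478 they were 60.1, 66.6, 56.2 and 33.8 RPM. Cluster A had only 1 locus above 50 RPM, at 19756012 on the minus strand, with 64.2 RPM with CF Im 68 siRNA, 63.1 RPM with CstF-64 siRNA, 57.4 RPM with control siRNA and 43.8 RPM without siRNA. Its next loci were at 19734478 on the minus strand, with 28, 17.0, 22.8 and 13.8 RPM, and at 24312653 on the plus strand, with 10.0, 6.67, 10.6 and 18.5 RPM. At 24312653 the no siRNA library was the highest of the 4, and at 19734478 the lowest.

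The clusters held a small part of the chromosome's reads, lowest in the CstF-64 library. They took 5.64% of chromosome 19 reads with CF Im 68 siRNA (exact Clopper-Pearson 95% interval 5.60 to 5.68%), 5.15% with CstF-64 siRNA (5.10 to 5.20%), 5.77% with control siRNA (5.73 to 5.81%) and 5.78% without siRNA (5.74 to 5.82%), although they cover 11.3 of the 58.9 Mb between its outermost 3′ ends. The control intervals overlapped and both depleted libraries lay below them, with CstF-64 lowest. These intervals cover counting error only. Without the leading locus of cluster E, which was removed after its values were seen, the shares were 5.0%, 3.97%, 4.85% and 5.02%, so that the CF Im 68 library then lay between the controls and the CstF-64 library remained below them. Reads on the minus strand made up 30.4% of cluster reads with CF Im 68 siRNA, 27.5% with CstF-64 siRNA, 31.7% with control siRNA and 33.7% without siRNA. In the rest of chromosome 19 they made up between 39.4% and 40.0%. The leading locus of cluster E lies on the plus strand and was not removed from these shares. It took 12.0%, 23.9%, 16.7% and 13.8% of cluster reads, in the same order. The minus share also differed among the clusters. With control siRNA it was 61.8% in A, 48.8% in B, 21.0% in C, 40.3% in D and 24.3% in E.

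After CF Im 68 siRNA, site use moved toward the proximal site at few loci of the clusters. The proximal share is the percentage of the reads of a locus's 2 most used sites that fell on the site nearer the 5′ side, and pairs with at least 50 reads in every library were tested. Of the 89 loci with several sites, 51 qualified and 38 had too few reads: 20 of the tested pairs lay in cluster E, 18 in B, 9 in C, 3 in D and 1 in A. A pair counted as moved when Fisher's exact test against control siRNA gave a Benjamini-Hochberg adjusted p below 0.05 over all 4793 pairs, the share had changed by 10 percentage points or more, and the change from the no siRNA library had the same sign and was also 10 points or more. After CF Im 68 siRNA the proximal share of 7 of the 51 pairs rose (13.7%) and that of 3 fell (5.88%). Over all pairs tested, 24.2% took the proximal and 2.63% the distal direction, and in the rest of chromosome 19 it was 19 of 199 (9.55%) and 8 of 199 (4.02%).

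The median change was small. The proximal share after CF Im 68 siRNA minus that after control siRNA had a median of -0.085 percentage points over the 51 pairs (quartiles -5.62 and 6.94), against 1.39 points in the rest of chromosome 19 and 4.84 points over all pairs. Against the no siRNA library the medians were 2.70, 1.24 and 5.23 points, in the same order. The sign of the cluster median thus depended on the control chosen. Chromosome 19 as a whole had the lowest percentage of pairs moved to the proximal site of the 23 chromosomes tested, 10.4% of 250 pairs, followed by chromosome 22 with 11.7%. Pairs of the clusters had fewer reads, with medians of 212, 98, 231 and 265 pair reads after CF Im 68 siRNA, CstF-64 siRNA, control siRNA and without siRNA, against 643, 322, 718 and 694 in the rest of the chromosome, and fewer reads leave smaller changes undetected. The part of depth in the difference between the clusters and all pairs was not tested.

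**Figure D3:**
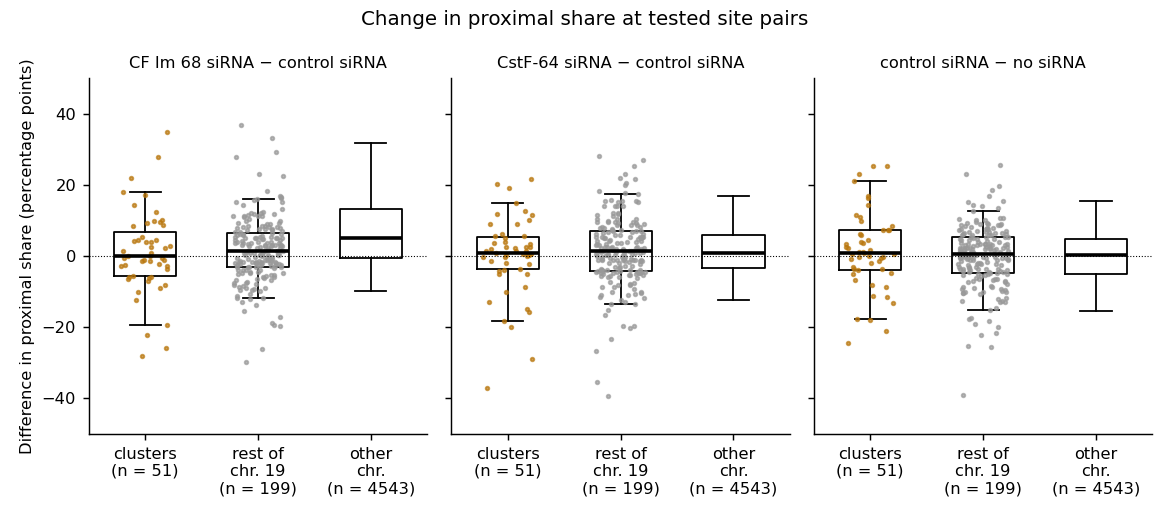
Difference in proximal share, in percentage points, for CF Im 68 siRNA minus control siRNA, CstF-64 siRNA minus control siRNA and control siRNA minus no siRNA. Boxes show the median and quartiles and whiskers the 5th and 95th percentiles for the clusters (51 pairs), the rest of chromosome 19 (199) and the other chromosomes (4543), and each point is a pair, drawn for chromosome 19. In the left panel the medians of the clusters and of the rest of the chromosome are -0.085 and 1.39 points, below that of the other chromosomes.

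The largest rise in proximal share after CF Im 68 siRNA was in cluster B, on the minus strand, at the pair with its proximal site at 37905042 and its distal site at 37902044. The proximal share was 75.8% with CF Im 68 siRNA (95% interval 70.3 to 80.8%), 22.5% with CstF-64 siRNA (14.9 to 31.9%), 40.8% with control siRNA (33.0 to 48.9%) and 40.9% without siRNA (34.4 to 47.6%). The adjusted p against control siRNA by Fisher's exact test was 5.2e-12 for CF Im 68 and 0.014 for CstF-64. The controls were almost equal here and the depletions lay on opposite sides of them, which made it the only pair of the clusters that passed for both in opposite directions. Its proximal site had 16.2 RPM with CF Im 68 siRNA, 3.13 RPM with CstF-64 siRNA, 4.76 RPM with control siRNA and 5.82 RPM without siRNA. The distal site ran the other way, with 5.16, 10.8, 6.92 and 8.41 RPM.

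In cluster E, 3 pairs rose. On the plus strand, the pair of sites at 58103198 and 58105254 had a proximal share of 64.4% with CF Im 68 siRNA (58.2 to 70.2%), 48.3% with CstF-64 siRNA, 36.3% with control siRNA (30.8 to 42.2%) and 21.9% without siRNA (17.5 to 26.9%). The adjusted p was 3.8e-10 by Fisher's exact test, and the controls differed by 14.4 points themselves, enough to be called between them. On the minus strand, the pair at 56732681 and 56728514 had 49.6% with CF Im 68 siRNA (40.9 to 58.4%), 37.8% with CstF-64 siRNA, 27.7% with control siRNA (19.3 to 37.5%) and 21.6% without siRNA (15.3 to 28.9%), with an adjusted p of 0.0020 by the same exact test. Its proximal site had 5.24 RPM with CF Im 68 siRNA, 4.22 RPM with CstF-64 siRNA and 2.08 and 2.09 RPM in the control and no siRNA libraries. The closest pair among these, at 58826568 and 58827019 on the plus strand, is only 451 nt apart and the deepest, with 799, 657, 782 and 1499 pair reads. Its share was 50.3% with CF Im 68 siRNA (46.8 to 53.8%), 28.9% with CstF-64 siRNA, 33.0% with control siRNA (29.7 to 36.4%) and 23.1% without siRNA (21.0 to 25.3%), with an adjusted p of 2.3e-11 by the exact test.

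The remaining rises were in clusters C and B. On the plus strand of C, the pair at 44612478 and 44613979 had a proximal share of 83.6% with CF Im 68 siRNA (80.2 to 86.6%), 68.1% with CstF-64 siRNA, 65.5% with control siRNA (60.6 to 70.0%) and 72.2% without siRNA (67.4 to 76.7%), with an adjusted p of 8.6e-10 by Fisher's exact test. Its proximal site had 35.1 RPM with CF Im 68 siRNA, 21.0 RPM with CstF-64 siRNA, 20.0 RPM with control siRNA and 17.0 RPM without siRNA, and it was the major site in all 4. At 44663148 and 44666523, also on the plus strand, the share was 37.7% with CF Im 68 siRNA (32.3 to 43.3%), 24.8% with CstF-64 siRNA, 23.3% with control siRNA (19 to 28.1%) and 27.2% without siRNA (22.9 to 31.8%), with an adjusted p of 0.00021. On the plus strand of B, the pair at 37734450 and 37739642 had 25.6% (20.4 to 31.4%), 17.8%, 15.5% (12.2 to 19.2%) and 12.1% (9.45 to 15.1%), in the same order, with an adjusted p of 0.0034. At this last pair the proximal site hardly differed, at 5.16, 4.09, 4.91 and 4.11 RPM, and the distal site was lower with CF Im 68 siRNA, at 15.0 RPM, than with CstF-64 siRNA, control siRNA or no siRNA, at 18.9, 26.9 and 29.9 RPM.

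The opposite direction, toward the distal site, was taken by 3 pairs after CF Im 68 siRNA. For the sites 44679583 and 44681837 (plus strand, cluster C), the proximal share fell to 59.8% with CF Im 68 siRNA (53.7 to 65.7%) and to 53.1% with CstF-64 siRNA (44.1 to 62.0%), against 82.0% with control siRNA (78.8 to 84.9%) and 86.8% without siRNA (84.1 to 89.1%). Adjusted p against control siRNA was 3.2e-11 and 6.5e-10 by Fisher's exact test. Here the proximal site itself was lower, with 12.7 RPM with CF Im 68 siRNA and 9.26 RPM with CstF-64 siRNA, against 39.6 RPM with control siRNA and 41.4 RPM without siRNA. The distal site had 8.52, 8.17, 8.70 and 6.33 RPM. The other kept sites of this locus ran in opposite directions. The site at 44679402 had 4.85 RPM with CF Im 68 siRNA and 5.17 RPM with CstF-64 siRNA, against 14.4 and 5.82 RPM in the control and no siRNA libraries, below both controls. The site at 44679887 had 9.93 and 7.08 RPM with the depletions, against 3.57 and 2.15 RPM in the control and no siRNA libraries, above both controls.

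For the sites 53741850 and 53741546 (minus strand, cluster D), both depletions again lay on the same side. The proximal share fell to 51.2% with CF Im 68 siRNA (40.1 to 62.1%) and to 42.4% with CstF-64 siRNA (29.6 to 55.9%), against 79.3% with control siRNA (69.6 to 87.1%) and 80.0% without siRNA (72.8 to 86.0%), with adjusted p of 0.00024 and 5.1e-05 by the exact test. This pair had only 86, 59, 92 and 155 reads and its sites lie 304 nt apart. The third was at 37035294 and 37034518 on the minus strand of cluster B, where the share fell to 67.7% with CF Im 68 siRNA (62.6 to 72.6%), against 97.1% with CstF-64 siRNA, 93.6% with control siRNA (89.9 to 96.2%) and 94.8% without siRNA (92.0 to 96.8%), with an adjusted p of 2.8e-15. The distal site, 776 nt further, had 8.91 RPM after CF Im 68 siRNA and 0.681, 1.26 and 1.2 RPM in the CstF-64, control and no siRNA libraries. The proximal site had 18.7, 22.7, 18.4 and 21.8 RPM, close together in all 4. With sites chosen on the control libraries alone, this pair and that at 44679583 were not formed, and 1 pair moved to the distal site.

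**Figure D4:**
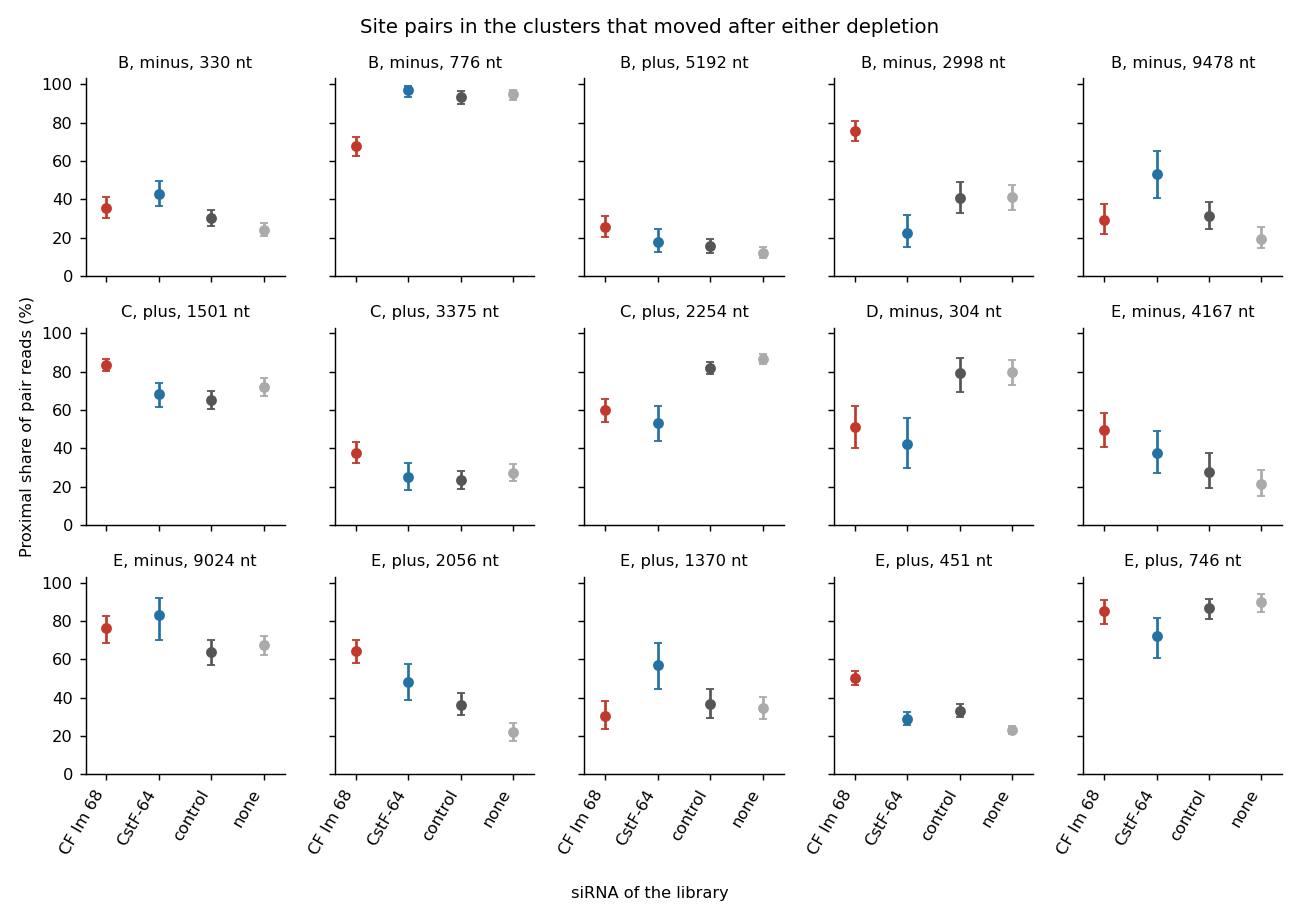
Proximal share in percent for the 15 pairs of the clusters that moved after either depletion, with exact Clopper-Pearson 95% intervals. Each panel is a pair, headed by its cluster, strand and the distance between its sites, and the points from left to right are the CF Im 68, CstF-64, control and no siRNA libraries. At the pair on the minus strand of B with sites 2998 nt apart, CF Im 68 siRNA is at 75.8% and CstF-64 siRNA at 22.5%, with both controls near 41%.

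After CstF-64 siRNA moves were as many in each direction. Of the 51 pairs, 4 rose in proximal share (7.84%) and 4 fell (7.84%), beside 8.20% and 3.59% of all pairs and 19 (9.55%) and 14 (7.04%) of the 199 in the rest of chromosome 19. The median change against control siRNA was 1.02 points in the clusters, 1.44 points in the rest of the chromosome and 1.04 points over all pairs. The 4 distal moves included the pairs at 53741850, 44679583 and 37902044 given above. The fourth was at 58969180 and 58969926 on the plus strand of cluster E, where the proximal share fell to 72.2% with CstF-64 siRNA (60.9 to 81.7%), with 85.4% with CF Im 68 siRNA, 86.9% with control siRNA (80.8 to 91.6%) and 90.0% without siRNA (84.7 to 94.0%), and an adjusted p of 0.030 by Fisher's exact test. The CstF-64 library gave 79 reads of this pair.

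The rises after CstF-64 siRNA were at other pairs. For the sites 38055162 and 38045684 (minus strand, cluster B), 9478 nt apart, the proximal share was 29.1% with CF Im 68 siRNA, 52.9% with CstF-64 siRNA (40.4 to 65.2%), 31.2% with control siRNA (24.3 to 38.7%) and 19.5% without siRNA (14.5 to 25.2%). For the sites 58134722 and 58136092 (plus strand, cluster E), it was 30.5%, 56.9% (44.7 to 68.6%), 36.8% (29.6 to 44.4%) and 34.4% (28.6 to 40.5%). Both had an adjusted p near the threshold, 0.014 and 0.021 by Fisher's exact test, from 68 and 72 reads in the CstF-64 library. For the sites 56896242 and 56887218 (minus strand, cluster E), the share was 76.2% with CF Im 68 siRNA, 83.0% with CstF-64 siRNA (70.2 to 91.9%), 63.8% with control siRNA (57.2 to 70.0%) and 67.4% without siRNA (62.0 to 72.4%), with an adjusted p of 0.036. For the sites 37001927 and 37001597 (minus strand, cluster B) it was 35.4%, 42.7% (36.3 to 49.3%), 30.1% (26.1 to 34.3%) and 24.1% (20.9 to 27.5%), with an adjusted p of 0.0050. In these last 2 pairs CF Im 68 siRNA lay between CstF-64 siRNA and the controls.

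The control libraries also differed from each other at many pairs. With the first 2 conditions alone, 14 of the 51 pairs differed between control siRNA and no siRNA, 8 toward the proximal site (15.7%) and 6 toward the distal site (11.8%), beside 10.6% and 11.1% of all pairs and 16 and 21 of the 199 in the rest of chromosome 19. Cluster E had 10 of these 14. By the same 2-library rule against no siRNA, 15 and 9 pairs differed for CF Im 68 siRNA and 12 and 8 for CstF-64 siRNA. Shares over all pairs by this rule against no siRNA are not given here, so these counts have no background. Against no siRNA, the proximal share with CF Im 68 siRNA was larger at 62.7% of cluster pairs. It was larger at 57.3% of pairs in the rest of chromosome 19 and 68.0% of all pairs. Of the pairs that moved after a depletion, those at 58105254 and 38045684 also differed between the controls, and the condition on both controls by itself favours pairs whose controls are alike. Among the 36 pairs that did not move, changes against control siRNA ranged from -19.2 to 9.97 points with CF Im 68 siRNA and from -19.9 to 15.0 points with CstF-64 siRNA, and control siRNA minus no siRNA ranged from -24.5 to 25.4 points.

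Between the depletions, by the same 2-library rule, the proximal share was larger with CF Im 68 siRNA than with CstF-64 siRNA at 7 of 51 pairs and smaller at 3. Over all pairs it was 24.9% larger and 5.05% smaller, and in the rest of chromosome 19 it was 25 and 14 of 199 pairs. The median of CF Im 68 siRNA minus CstF-64 siRNA was -0.44 points in the clusters, -0.81 points in the rest of chromosome 19 and 3.69 points over all pairs. The pairs at 37902044, 44612478, 44666523, 58105254 and 58827019 were among the 7, and 37035294, 38045684 and 58136092 were the 3.

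Among the 7 cluster pairs with a proximal move in the CF Im 68 library, 6 had the proximal site as the minor one in the controls. With the pooled share of the controls between 25 and 50%, 4 of 9 cluster pairs moved to the proximal site, with a median change of 9.35 points against control siRNA and 11.35 points against no siRNA. In that class 7 of 37 pairs moved in the rest of chromosome 19 (18.9%) and 34.5% of all pairs. Below 25% it was 2 of 16 cluster pairs and 9 of 63 in the rest of chromosome 19, beside 33.4% of all pairs, and between 50 and 75% it was 1 of 14 and 3 of 53, beside 21.4%. Above 75% none of the 12 cluster pairs moved to the proximal site. None of 46 did in the rest of the chromosome, beside 2.45% of all pairs. The 3 distal moves of the clusters all fell here, beside 3 of 46 in the rest and 4.52% of all pairs. The classes rest on the same controls as the change, and a high share leaves less room to rise than to fall. By distance, 5 of the 7 proximal moves were at pairs over 1000 and up to 5000 nt apart, of 25 such pairs (20.0%), beside 9 of 78 in the rest of chromosome 19 (11.5%) and 34.7% of all pairs. None of the 5 cluster pairs up to 200 nt apart moved, and 1 of 14 over 5000 nt did. By level, 4 of 20 pairs above 20 RPM moved to the proximal site (20.0%) and 3 of 31 at 5 to 20 RPM (9.68%), where all pairs had 24.2% and 24.3%. The classes in the clusters are small, and these counts carry no test between regions.

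The mean 3′ end position, over all the sites of a locus, gave an account that depended on the control chosen. Over 54 loci with enough reads, the mean distance of the ends from the most 5′ site was 1986 nt with CF Im 68 siRNA, 2039 nt with CstF-64 siRNA, 2062 nt with control siRNA and 2075 nt without siRNA. The median change after CF Im 68 siRNA was -16.7 nt against control siRNA and -108 nt against no siRNA, beside -56.8 and -60.2 nt over all loci. The cluster change was thus the smaller one against control siRNA and the larger one against no siRNA. Changes in nt also depend on the spacing of sites, which was wider at the tested loci of the clusters. The ends were at least 200 nt shorter in the CF Im 68 library than in the control siRNA library at 13 loci (24.1%, beside 30.7% of all loci) and at least 200 nt longer at 9. Against no siRNA it was 21 shorter (38.9%, beside 33.3%) and 13 longer, and control siRNA against no siRNA gave 14 shorter (25.9%, beside 13.6%) and 10 longer. Among 27 loci with at least 3 sites, the first site took 44.7% of reads with CF Im 68 siRNA, 39.9% with CstF-64 siRNA, 43.0% with control siRNA and 40.6% without siRNA. For such loci over the genome it took 33.8%, 25.8%, 24.7% and 24.7%, so that the first site was used more in the clusters already in the controls and stood within a few points of them after CF Im 68 siRNA.

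Locus totals changed little after CF Im 68 siRNA. The comparison used the log2 ratio of RPM, with 1 added, at 200 cluster loci with at least 50 reads, without a test, and a locus was called at 2-fold against both controls. In bulk cells, fewer cells with a transcript and less of it per cell cannot be told apart. After CF Im 68 siRNA 5 loci were higher and 5 lower (2.5% each), beside 5.02% higher and 1.86% lower of all loci and 24 and 26 of 841 in the rest of chromosome 19. The median log2 ratio to control siRNA was -0.05 in the clusters, -0.09 in the rest of the chromosome and 0.02 over all loci. With control siRNA set against no siRNA, 4 cluster loci were at least 2-fold higher and 2 lower, beside 5.20% and 1.95% of all loci.

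The highest of the higher loci was a single position in 1 library. At 53042801 on the minus strand of cluster D, 535 reads (41.8 RPM) ended after CF Im 68 siRNA and none in the other 3 libraries. That is at least 187-fold higher than after control siRNA and at least 220-fold higher than without siRNA, with a count of 0 set to the floor of 3 reads per library. The positions 57416942 on the plus strand and 57729155 on the minus strand of cluster E were likewise read only after CF Im 68 siRNA, by 87 and 64 reads. These 3 of the 5 higher loci each consisted of 1 nucleotide position. At 52715326 on the plus strand of cluster D, in contrast, reads fell on 15 positions, with 8.91 RPM with CF Im 68 siRNA, 4.77 RPM with CstF-64 siRNA, 2.53 RPM with control siRNA and 3.61 RPM without siRNA. It was 3.52-fold above control siRNA (2.38 to 5.33) and 2.47-fold above no siRNA (1.78 to 3.46), but with TMM or DESeq2 factors it no longer reached 2-fold against both controls. The fifth, at 36851004 on the minus strand of cluster B, had 3.67 RPM after CF Im 68 siRNA and 0.409, 0.669 and 0.253 RPM in the CstF-64, control and no siRNA libraries.

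Of the 5 loci lower after CF Im 68 siRNA, the one with the most reads was at 52516578 on the minus strand of cluster D, where 2 sites were summed and the most used one took 96.3% of the mean reads. It had 38.9 RPM with CF Im 68 siRNA and 35 RPM with CstF-64 siRNA, against 82.3 RPM with control siRNA and 88.4 RPM without siRNA. Both depleted libraries were lower than both controls: CF Im 68 was 0.472-fold of control siRNA (0.424 to 0.525) and CstF-64 0.425-fold (0.370 to 0.488), and control siRNA was 0.931-fold of no siRNA. At 44731286 on the minus strand of cluster C there were 7.19 RPM with CF Im 68 siRNA, 14.4 RPM with CstF-64 siRNA, 20.4 RPM with control siRNA and 24.2 RPM without siRNA, and CF Im 68 was 0.353-fold of control siRNA (0.276 to 0.448). At 58488447 on the minus strand of E both depletions were again low, with 3.52 and 3.4 RPM after CF Im 68 and CstF-64 siRNA, against 9.0 and 8.10 RPM after control siRNA and without siRNA. Both were low also at 53933667 on the plus strand of D, with 1.25 RPM with CF Im 68 siRNA and 0.409 RPM (3 reads) with CstF-64 siRNA, against 4.91 and 3.86 RPM in the control and no siRNA libraries. The fifth, 58037413 on the plus strand of E, rested on 8 reads with CF Im 68 siRNA, 0.625 RPM, with 1.91 RPM with CstF-64 siRNA, 3.12 RPM with control siRNA and 2.47 RPM without siRNA.

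After CstF-64 siRNA lower totals prevailed. Of the 200 loci, 16 were lower (8.0%) and 1 higher (0.5%), beside 6.11% lower and 1.82% higher of all loci and 89 (10.6%) and 13 of 841 in the rest of chromosome 19. The median log2 ratio to control siRNA was -0.31 in the clusters, -0.22 in the rest of the chromosome and -0.19 over all loci, and against no siRNA it was -0.29, -0.08 and -0.08. Relative to the median of all loci, the cluster median stood at -0.12 against control siRNA and -0.22 against no siRNA on the log2 scale. Below control siRNA were 135 of the 200 loci (67.5%), beside 63.3% of all loci. The CstF-64 library was the shallowest, and its totals depended on the scaling: with TMM factors 10 loci were lower and the cluster median was -0.13 (all loci -0.01), and with DESeq2 size factors 7 were lower and the median was -0.10.

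**Figure D5:**
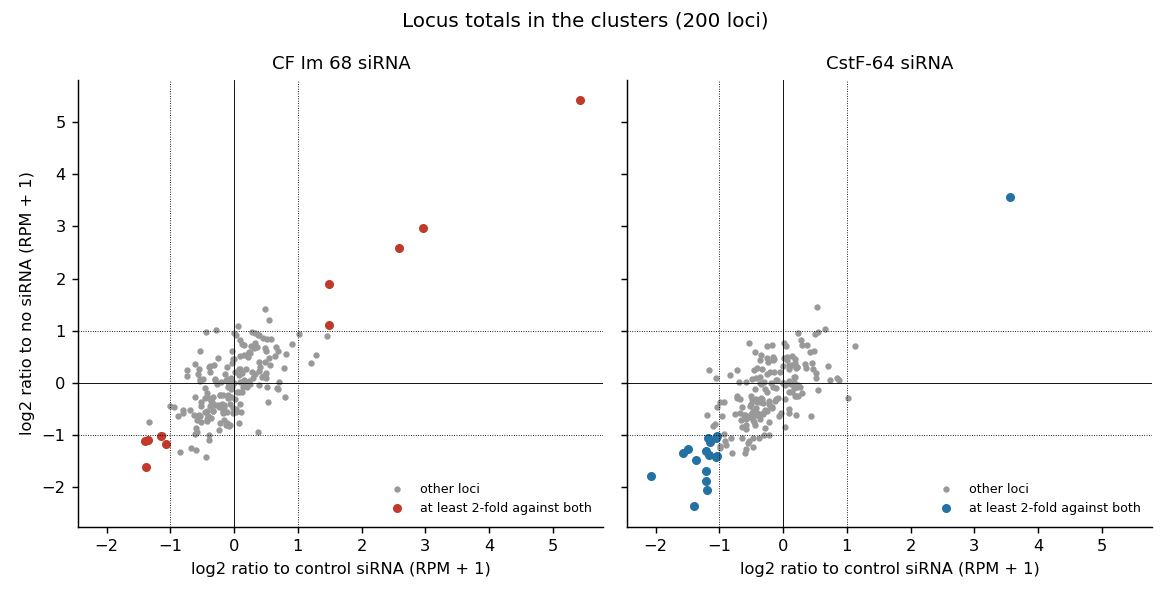
Locus totals of the 200 loci, as log2 ratios of RPM plus 1 to control siRNA (horizontal) and to no siRNA (vertical), for CF Im 68 siRNA on the left and CstF-64 siRNA on the right. Each point is a locus and dotted lines mark 2-fold. After CF Im 68 siRNA 5 coloured points lie above and 5 below both lines, and after CstF-64 siRNA 1 above and 16 below.

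Several of the lower loci had more than 1 site. At 37820602 on the plus strand of cluster B there were 10.9 RPM with CF Im 68 siRNA, 4.36 RPM with CstF-64 siRNA, 15.0 RPM with control siRNA and 12.5 RPM without siRNA, and CstF-64 was 0.291-fold of control siRNA (0.194 to 0.425). At 37071157 on the minus strand of B they were 9.15, 4.90, 14.1 and 15.5 RPM (0.347-fold of control siRNA, 0.236 to 0.497). At 58858216 on the minus strand of E they were 6.18, 2.72, 8.78 and 18.2 RPM, and control siRNA was itself 0.482-fold of no siRNA. In each of these the CstF-64 library was the lowest of the 4 and the CF Im 68 library also lay below both controls. At 52392489 on the minus strand of D the values were 1.72, 0.681, 3.72 and 3.04 RPM, from 5 reads in the CstF-64 library. The one higher locus, at 58705739 on the minus strand of E, was again a single position, with 79 reads after CstF-64 siRNA and none in the other libraries, at least 48.2-fold higher than after control siRNA with the same floor of 3 reads per library.

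By strand, 11 of the 16 loci lower after CstF-64 siRNA were among the 84 on the minus strand and 5 among the 116 on the plus strand, and in the rest of chromosome 19 it was 46 of 414 and 43 of 427. By level, 6 were among the 92 loci below 5 RPM, 6 among the 67 at 5 to 20 RPM and 4 among the 41 above 20 RPM, so that they were not confined to loci with few reads. In the rest of chromosome 19, 36 of 245 loci below 5 RPM, 24 at 5 to 20 RPM and 29 of 417 above 20 RPM were lower. The share of lower loci was thus smaller in the clusters than there in both classes below 20 RPM, and larger above 20 RPM. The cluster medians of these classes against control siRNA were -0.24, -0.34 and -0.32, whereas in the rest of chromosome 19 the medians came closer to 0 with level, at -0.49, -0.33 and -0.09. In the clusters the loci above 20 RPM were thus lower after CstF-64 siRNA than loci of the same class elsewhere on the chromosome, a description without a test. Levels within this class were not matched. Above 100 RPM were 9 of its 41 cluster loci and 171 of its 417 loci in the rest of the chromosome.

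Few sites of the clusters had at least 99% of their scaled reads in 1 library. There were 5 among 373 sites (1.34%), against 28 of 1407 in the rest of chromosome 19 (1.99%) and 1.86% of all sites. All 5 consisted of 1 position: 3 were read with CF Im 68 siRNA, 1 with CstF-64 siRNA and 1 without siRNA. The last, at 58777718 on the plus strand of cluster E, had 160 reads without siRNA and none after CF Im 68 siRNA, CstF-64 siRNA or control siRNA, and it formed the distal member of the pair at 58775007. That pair accounts for 1 of the 8 proximal differences between control siRNA and no siRNA. Whether such positions are transcript ends or copies of few fragments was not tested.

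Few loci on opposite strands met within the clusters. Of 85 minus-strand loci in the clusters, 5 had a plus-strand locus with its end within 1000 nt (5.88%), against 46 of 422 in the rest of chromosome 19 (10.9%), and 4 of the 5 were in cluster E. At 58827019 on the plus strand and 58826148 on the minus strand, with 81.0 and 89.8 RPM, the ends lay 871 nt past each other, so that the transcripts overlap at their 3′ ends. This is the plus-strand locus whose proximal site, at 58826568, rose after CF Im 68 siRNA, and both of its sites lie inside that overlap. At 59062083 on the plus strand and 59062934 on the minus strand, the most used such couple with 358 and 192 RPM, the ends faced each other 851 nt apart without overlap.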

How the data were processed

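The authors deposited counts of reads for each 3′ end nucleotide on each strand for 4 A-seq libraries of HEK293 cells, without normalization, and the build, per the submitters' processing notes, was hg19 (GRCh37). RNA with a poly(A) tail was, per the labels' protocols, fragmented and reverse transcribed from an anchored oligo-dT primer, and depletion was checked by Western blot. Reads primed within A-rich stretches were not separated, no molecular identifiers are given, and intervals and floors cover counting error only. The aligner and the handling of reads with several matches are not given in the sources used here. Of the authors' running numbers of positions, 11.3% were absent with CF Im 68 siRNA, 10.2% with CstF-64 siRNA, 10.8% with control siRNA and 12.2% without siRNA. Why they are absent is not given in the sources used here, and any positions behind them have no counts here. The CF Im 68 siRNA, CstF-64 siRNA and control siRNA libraries had a floor (3 reads) of 0.235, 0.409 and 0.223 RPM, and the no siRNA library 0.190 RPM.

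Sites and loci were built over the whole genome on chromosomes 1 to 22 and X. A locus belonged to a cluster when its most used site lay in it. Fisher's exact tests (SciPy 1.17.1, Python 3.11.15) were adjusted over all 4793 pairs, and only rows of the clusters and of chromosome 19 are given. edgeR 4.0.16 and DESeq2 1.42.0 supplied alternative scaling factors only, since 1 library a group leaves no spread to estimate. Shares have exact Clopper-Pearson 95% intervals, and ratios have exact conditional ones. The test was run on simulated libraries that had counting error only and equal shares in both controls. Such a check leaves out the spread between real libraries and does not give the rate of false calls in these data.

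Named loci were, by rule, the 3 most used of each cluster, up to 8 moved pairs in each direction for each depletion, and up to 6 loci furthest above and below both controls at a mean of at least 2 RPM. Others were chosen after their values were seen. The windows, lists and tests were chosen with earlier results of these data known. Alternatives covered site width, site and read minimums, locus width, choice of control, size of change, depth, scaling and pseudocount.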

Additional observations from a re-analysis of the deposited data

How the results depend on the processing

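With 1 library a group, the spread between cultures is unknown. No paired analysis was possible because each group had 1 library. Over the alternatives run, the median change in proximal share stayed between -0.99 and 2.91 points with CF Im 68 siRNA and between 0.47 and 1.47 points with CstF-64 siRNA. At the named pairs 230 recomputed changes kept their call, 16 no longer passed and none reversed, and at the named totals it was 129 and 4. Part of the kept calls was fixed in advance, because some settings only loosen the rule and cannot remove a call. For pairs these include a smaller required change and control siRNA alone. For totals they include either control alone and a smaller pseudocount. The kept counts are therefore not a measure of stability. The locus at 52715326 dropped under 2-fold with TMM and DESeq2 factors and that at 52516578 after CstF-64 siRNA with DESeq2. That at 52392489 after CstF-64 siRNA lost its call with sites of at least 0.5 RPM. The pairs at 44612478, 44666523, 56728514, 37001597, 56896242, 58136092 and 58969180 no longer passed when all libraries were thinned to the smallest, a loss of reads by construction. The cause of the other shifts was not tested.

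At 0.5 and 2 RPM per site, there were 52.7 and 20.4 sites per Mb and 139 and 58 loci with several sites. With sites chosen on the controls, CF Im 68 siRNA gave 1 distal move. At least 20 pair reads gave 11 proximal moves with CF Im 68 siRNA in 79 pairs, and at least 100 gave 1 proximal and 2 distal with CstF-64 siRNA in 25. A change of 5 points gave 5 distal moves after CF Im 68 siRNA. A change of 20 points gave 3 proximal with CF Im 68 siRNA and 2 and 2 with CstF-64 siRNA. Thinned libraries gave 4 proximal with CF Im 68 siRNA and 1 proximal and 2 distal with CstF-64 siRNA, in 45 pairs. Against no siRNA alone there were 15 proximal and 9 distal moves with CF Im 68 siRNA and 12 and 8 with CstF-64 siRNA. These counts, and those of totals below, stand without the shares over all pairs or loci. They show only how the cluster counts depend on the settings.

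For totals after CF Im 68 siRNA, 9 were higher and 8 lower against control siRNA alone, 9 and 10 against no siRNA alone, and 2 and 3 of 122 loci with 200 reads, and a pseudocount of 0.1 RPM gave 11 lower. After CstF-64 siRNA, 3 were higher against control siRNA alone, 3 higher and 30 lower against no siRNA alone, 0 and 10 with 200 reads, and 26 lower with a pseudocount of 0.1 RPM. TMM factors gave 10 lower and a median of -0.13, and DESeq2 factors 7 and -0.10. Without sites of 1 library, an alternative chosen after seeing the data, 2 were higher with CF Im 68 siRNA and 0 with CstF-64 siRNA.

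The clusters' share of chromosome 19 reads, in the order CF Im 68, CstF-64, control and no siRNA, was 5.10%, 4.78%, 5.28% and 5.34% from sites only. It was 7.23%, 7.23%, 7.56% and 7.62% without the 10 most used sites of the chromosome. With each position counted once it was 22.7%, 21.2%, 22.3% and 22.9%. Without the leading locus, chosen after seeing the data, it was 5.0%, 3.97%, 4.85% and 5.02%.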
